A study of Homo sapiens and Mus musculus with 18 samples.

Results

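The posterior HOX genes of paralog groups 10, 11 and 13 were followed through human and mouse gastruloid development. The members were HOXA10, HOXC10, HOXD10, HOXA11, HOXC11, HOXD11, HOXA13, HOXB13, HOXC13 and HOXD13, taken by name in each species. The members of the HOXA, HOXB, HOXC and HOXD clusters lie on chromosomes 7, 17, 12 and 2 in human and 6, 11, 15 and 2 in mouse. They make up 10 of the 39 protein-coding HOX genes and 10 of the 44910 genes of the human count table, and 10 of 39 and 10 of 29720 in mouse. RNA-seq of polyadenylated RNA covered 18 samples in 9 groups with 2 biological replicates each, and the replicates of a stage came from the same experimental batch, so that p-values measure the spread between these samples only.

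All human groups came from established embryonic stem cell (ESC) lines. Naïve H9 ESCs had been chemically reset to a pre-implantation-like state in PXGL medium on irradiated mouse embryonic fibroblast feeders, which were removed over later passages. Primed H9 and primed RUES2-GLR ESCs were kept without feeders in StemFlex medium, and RUES2-GLR is a reporter line for germ layers. RA-gastruloids were aggregates of RUES2-GLR cells exposed first to CHIR99021, an activator of WNT signalling, and to retinoic acid (RA), and were collected at 24 h (early) and 120 h (late). Matrigel with RA was added between these times, so only the late samples had received it. All mouse groups came from the ESC line E14Tg2a: naïve ESCs in 2i/LIF, epiblast-like cells (EpiLCs) made with Activin A and bFGF, and early and late gastruloids given a CHIR99021 pulse without RA. The mouse gastruloids were seeded from naïve ESCs, not from EpiLCs. Per the paper's methods, both mouse stages were collected at later times than the RA-gastruloids of the same stage. The early mouse time was also that at which the CHIR99021 pulse ended. Each gastruloid sample pooled many aggregates. Species, protocol, starting state and time of collection therefore cannot be told apart in any comparison of the species.

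HOX genes encode homeodomain transcription factors that lie in clusters and are switched on along the body axis in the order of their position in the cluster. The most posterior groups come last: group 10 genes pattern the lumbar vertebrae, group 11 genes the sacral vertebrae, the forearm and the kidney, and group 13 genes the tail end, the digits and the genital and hindgut endings. CDX factors, WNT, FGF and GDF11 signals act upstream of posterior HOX genes in the tailbud, and TALE proteins such as MEIS bind DNA together with HOX proteins.

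The human and mouse homeoboxes of HOXD13 and HOXA13 are shown first, because HOXD13 carried the highest member level in human and HOXA13 moved in opposite directions in the species. The homeobox is the stretch of 180 bases that encodes the DNA-binding domain, and the capitals mark the bases that differ between the species. Human HOXD13 lies at chr2:176094524-176094703 on the plus strand of GRCh38 and mouse Hoxd13 at chr2:74500274-74500453 on the plus strand of GRCm39. Human HOXA13 lies at chr7:27198222-27198401 on the minus strand and mouse Hoxa13 at chr6:52235908-52236087 on the minus strand of the same builds. All are coding and each lies within a single exon.
HOXD13: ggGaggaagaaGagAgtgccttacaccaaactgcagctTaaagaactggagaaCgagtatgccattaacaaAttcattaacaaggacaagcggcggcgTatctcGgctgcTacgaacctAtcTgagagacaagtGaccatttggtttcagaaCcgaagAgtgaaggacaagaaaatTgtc
Hoxd13: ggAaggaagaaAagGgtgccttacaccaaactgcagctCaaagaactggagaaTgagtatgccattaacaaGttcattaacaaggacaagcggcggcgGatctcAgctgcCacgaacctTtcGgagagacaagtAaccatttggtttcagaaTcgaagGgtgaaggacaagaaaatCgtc
HOXA13: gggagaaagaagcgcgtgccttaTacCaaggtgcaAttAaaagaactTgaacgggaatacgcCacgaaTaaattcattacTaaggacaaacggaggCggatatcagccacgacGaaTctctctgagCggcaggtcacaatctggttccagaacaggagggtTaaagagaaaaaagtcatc
Hoxa13: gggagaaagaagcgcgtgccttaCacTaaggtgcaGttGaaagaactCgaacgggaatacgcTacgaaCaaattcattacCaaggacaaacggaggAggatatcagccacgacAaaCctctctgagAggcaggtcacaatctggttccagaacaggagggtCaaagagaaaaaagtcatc

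The species differed at 15 of 180 bases in HOXD13 and at 13 in HOXA13. Across the members, identity of the homeobox between human and mouse ran from 91.1% for HOXC13 to 100% for HOXC10. Within human, homeoboxes of the same paralog group shared 69.4 to 83.9% of their bases (median 78.9% of 12 pairs), and those of different groups 51.7 to 70% (median 60.6% of 33 pairs). The mouse values were 67.2 to 86.7% (median 78.1%) and 52.2 to 70% (median 60.0%). Mouse reads in the human libraries could be counted on a human member only where the sequences are close. Of the 100-base windows of each mouse transcript, the share that matched the human transcript with at most 10 edits was 20.5% for HOXD13, 9.3% for HOXB13, 39.7% for HOXC13 and 32.0% for HOXA13. It was 23.8, 51.8 and 76.7% for HOXA10, HOXC10 and HOXD10, and 38.7, 46.6 and 11% for HOXA11, HOXC11 and HOXD11.

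Counting ignored strand and left out reads that fell on several genes, so members with shared exons are counted incompletely. In human, HOXA11 shares 27.2% of its exonic bases with HOXA11-AS, HOXA10 16.4% with HOXA10-AS, HOXC13 7.3% with HOXC13-AS and HOXC10 2.7% with HOXC-AS3. HOXD10 and HOXD11 share 18.2 and 21.4% of their bases with each other. In mouse, Hoxa11 shares 35.0% with Hoxa11os and Hoxc10 8.7% with Hoxc5. The remaining members share none.

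Library totals ranged from 3681739 to 38771193 counts in human and from 6487157 to 20052505 in mouse. Levels are given as counts, as counts per 1000000 after TMM scaling (CPM), and, between genes, as transcripts per 1000000 from the gene lengths of the count tables (TPM). A floor of 3 counts per library stood for the limit that a count of 0 allows. It corresponded to 0.0715 to 0.956 CPM in human, highest in primed RUES2-GLR replicate 2, and to 0.148 to 0.447 CPM in mouse. The group labels were checked against marker genes. The 5 naïve markers summed to 3894 ± 193.2 CPM in naïve H9 (SD, n = 2) and 11 ± 0.226 in primed H9, and the 4 primitive-streak and mesoderm markers to 823.0 ± 31.6 CPM in early RA-gastruloids. In mouse, 4 naïve markers summed to 1987 ± 21.2 CPM in naïve ESCs and 48.1 ± 2.48 in EpiLCs. Early gastruloids still had 824.7 ± 10.6 CPM of these naïve markers, and late ones 104.8 ± 2.21. The 4 EpiLC markers summed to 157.1 ± 0.903 CPM in naïve ESCs, 2385 ± 26.0 in EpiLCs and 771.6 ± 9.7 in early gastruloids. The 4 mesoderm markers summed to 223.8 ± 1.02 CPM in early gastruloids, with 1 of them at 0 and T alone at 212.8 ± 0.51. The 6 late markers, of neural, somitic and cardiac cells, summed to 470.9 ± 21.3 CPM in late RA-gastruloids, with 1 at 0, and to 214.6 ± 3.86 CPM in mouse late gastruloids.

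Tests used edgeR's quasi-likelihood method in 1 fit per species over 18300 human and 15003 mouse genes that passed a filter on low counts. Adjusted p-values are from this method with Benjamini-Hochberg adjustment over all tested genes, and a gene was called where the adjusted p was below 0.05 and the log2 fold change exceeded 1 in size. Comparisons that share a group of samples are not independent of each other. In human, 8 of the 10 members passed the filter and HOXD10 and HOXD11 did not. In mouse, 5 of 10 passed, namely Hoxa10, Hoxa11, Hoxa13, Hoxc13 and Hoxd13. Members that passed did so mostly through the group in which they were high. The counts of called members below therefore describe them and are no support for a shared behaviour.

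The summed posterior HOX RNA was highest in naïve cells in both species, and group 13 made up most of it there. In mouse naïve ESCs most of the sum was Hoxc13 alone, at 14.2 ± 2.59 CPM (SD, n = 2). Hoxa10, Hoxa11, Hoxa13, Hoxd10 and Hoxd11 were instead highest in mouse late gastruloids. The members summed to 48.2 and 51.7 CPM in the naïve H9 replicates, of which group 13 gave 39.5 and 42.9 CPM. In primed H9 no read fell on any member in either replicate. Primed RUES2-GLR had 1 read, on HOXB13. The sum was 3.46 and 1.61 CPM in early RA-gastruloids and 2.13 and 0.917 CPM in late ones. In mouse the sums were 20.7 and 14.5 CPM in naïve ESCs, 2.81 and 2.57 in EpiLCs, 4.59 and 5.45 in early gastruloids and 7.24 and 8.04 in late gastruloids. In these bulk samples, fewer expressing cells and less RNA per cell cannot be told apart.

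**Figure D1:**
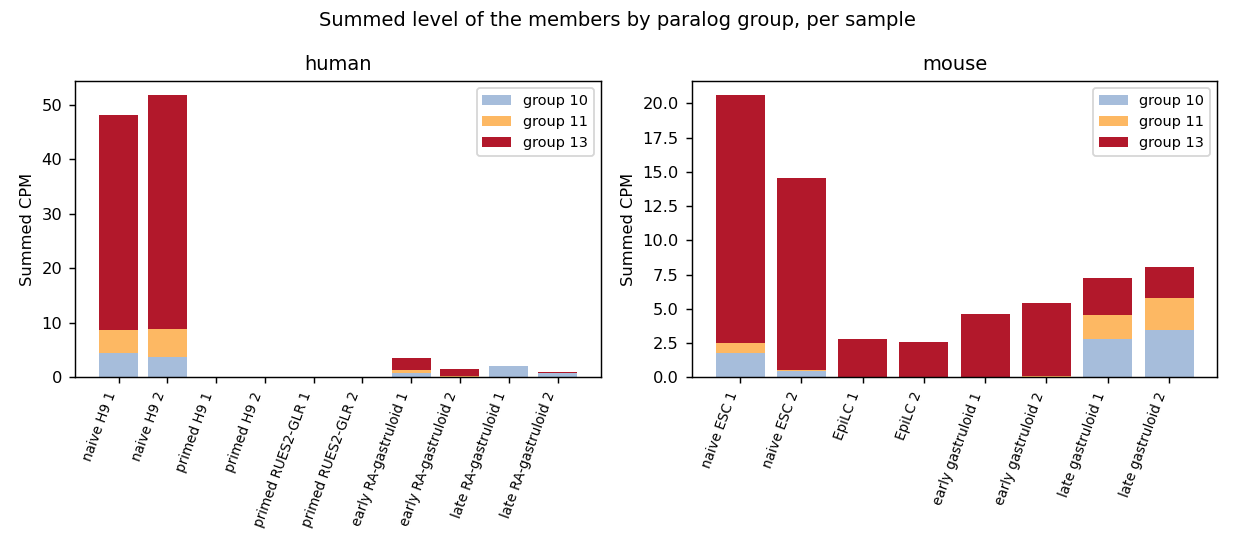
Summed CPM of the members in each sample (bars, 1 per sample), split into paralog groups 10, 11 and 13, for human (left) and mouse (right) on separate linear axes. Group 13 fills most of the bar in naïve cells of both species, primed human ESCs are at or near 0, and groups 10 and 11 appear in mouse late gastruloids.

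HOXD13, which patterns digits and the genital tubercle, had the highest level of any member. Its counts were 409 and 405 in naïve H9, or 21.4 and 23.2 CPM, and 0 in both primed H9 libraries. Early RA-gastruloids had 3 and 0 reads and late ones 0. The naïve level was at least 158.7-fold higher than in primed H9 against the floor (adjusted p = 1.83e-18). HOXB13, known from the tail end of the axis and the prostate, had 162 and 168 reads in naïve H9 (8.47 and 9.64 CPM) and none in primed H9, a difference of at least 64.4-fold (adjusted p = 1.24e-16). HOXC13, a regulator of hair and nail keratins, had 156 and 151 reads in naïve H9 (8.15 and 8.66 CPM). It had none in any of the other 8 human libraries, and fell at least 59.8-fold to primed H9 (adjusted p = 6.9e-15). HOXA13, which acts in the digits, cloaca and umbilical vessels, was the weakest of the group with 28 and 23 reads, at least 9.9-fold above primed H9 (adjusted p = 3.19e-08). By TPM the order in naïve H9 was HOXD13 (28.3 ± 1.26), HOXC13 (11 ± 0.311), HOXB13 (9.14 ± 0.705) and HOXA13 (0.843 ± 0.0738; all SD, n = 2), and the replicate ranges of these neighbours did not overlap.

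The human promoter of HOXD13 is printed because this gene led the naïve level. The 250 bases upstream of its start in RefSeq are at chr2:176092471-176092720 on the plus strand of GRCh38.p14, and the capitals mark matches to TATAAA on either strand, which overlap here.
HOXD13 upstream: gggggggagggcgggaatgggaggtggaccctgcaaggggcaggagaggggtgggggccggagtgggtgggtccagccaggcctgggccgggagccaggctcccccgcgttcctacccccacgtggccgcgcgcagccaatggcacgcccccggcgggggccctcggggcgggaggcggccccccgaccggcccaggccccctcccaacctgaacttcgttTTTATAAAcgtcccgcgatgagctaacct
The motif was found in 10.72% of the 35116 promoters of the table and in 3 of the 7 promoters that 6 members have there, namely those of HOXA10 and HOXD13. CAATAAA, searched on both strands in the same windows, was in 3.66% of all promoters and CTCGTAAA in 0.117%, and neither was in a member promoter. The HOXD13 window had 74.0% G and C with 21 CpG dinucleotides, that of HOXA13 78.0% with 40, and the medians over all promoters were 58% and 11. HOXB13, HOXC10, HOXC11 and HOXC13 had no matched RefSeq promoter and were not searched.

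Members of groups 10 and 11 were also read in naïve H9, at about 1 to 3 CPM. HOXC10, active in the lumbar cord and hindlimb, had 63 and 36 reads (3.29 and 2.07 CPM). HOXC11 had 53 and 51 reads (2.77 and 2.93 CPM). These levels were at least 19.1-fold and 20.3-fold above primed H9 (adjusted p = 2.65e-10 and 3.91e-10). HOXA11, required in the kidney, the forearm and the uterus, had 25 and 36 reads, and HOXA10, which acts in the lumbar axis and the uterus, 22 and 23. By TPM these members stood at 3.48 ± 1.17 (HOXC10), 2.68 ± 0.0649 (HOXC11), 1.94 ± 0.589 (HOXA11) and 1.02 ± 0.0846 (HOXA10), and only HOXC10 and HOXC11 overlapped between replicates among these neighbours in order. The bounds against primed H9 were 12-fold (adjusted p = 2.6e-08) and 8.78-fold (adjusted p = 2.06e-07). HOXD10 had 2 and 6 reads and HOXD11 2 and 3, at or close to the floor, although their HOXD neighbour HOXD13 was the highest member. In all, 8 of the 8 tested members were called lower in primed than in naïve H9, where 22.3% of all tested genes were called lower. With DESeq2, HOXA11 (adjusted p = 0.131) and HOXC11 (adjusted p = 0.0966) were not called.

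**Figure D2:**
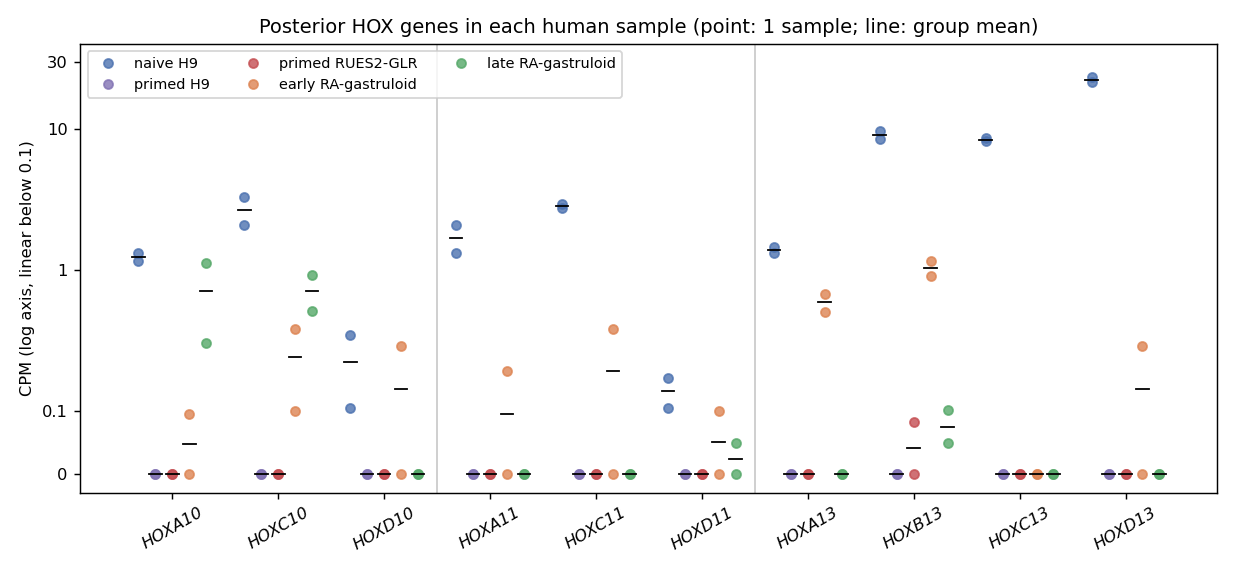
CPM of each member in each human sample on a log axis that is linear below 0.1; points are samples, lines are group means, and grey lines separate paralog groups 10, 11 and 13. Naïve H9 is the highest group for each member, HOXA13 and HOXB13 are above 0 in both early RA-gastruloid samples, and HOXA10 and HOXC10 are above 0 in both late samples.

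Other RNAs of the clusters were read in naïve H9 as well. HOTAIR, a noncoding RNA of the HOXC cluster, had 18 and 12 reads, HOXA11-AS 11 and 15, and HOXC13-AS 15 and 10, all with 0 in both primed lines. Among the adjacent group 9 and 12 genes and the EVX genes, 5 of the 6 tested were called lower in primed than in naïve H9 and none higher. HOXD9 had 108 and 93 reads in naïve H9, and HOXC12, which lies beside HOXC13, had 28 and 17. Of the upstream regulators, CDX2 was at 16.4 ± 1.27 CPM in naïve H9 and 0.0357 ± 0.0505 in primed H9 (log2 fold change −8.07 ± 0.30, adjusted p = 2.13e-20), and CDX1 at 16.7 ± 1.99 and 0.0357 ± 0.0505 CPM (−8.10 ± 0.33, adjusted p = 1.5e-19). GDF11 fell from 102.0 ± 0.494 to 26.9 ± 0.428 CPM (−1.92 ± 0.11, adjusted p = 4.49e-16). CDX4 went the other way, from 0.0548 ± 0.00361 to 0.874 ± 0.247 CPM (3.91 ± 0.73, adjusted p = 1.61e-05). The counts over the regulator list were 3 higher and 6 lower of 14.

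Fibroblast markers summed higher in naïve than in primed H9. Their sums in primed RUES2-GLR, with 5 of 12 at 0, overlapped those of naïve H9, and RA-gastruloids were above both. All 12 markers of a fibroblast list were above 0 in naïve H9, where they summed to 700.9 to 725.4 CPM, against 320.5 to 329.6 in primed H9 with 4 at 0. Of the 11 tested, 6 were called lower in primed than in naïve H9 and 1 higher. The sum was 667.7 to 742.0 in primed RUES2-GLR, 1184 to 1253 in early and 831.4 to 964.9 in late RA-gastruloids. DCN and LUM, both on the fibroblast list, had 154 and 108, and 30 and 37 reads in naïve H9, and 0 in both primed lines. COL3A1 was at 181.0 and 171.6 CPM in naïve H9 and at most 0.0699 in primed H9. The lateral plate and hindlimb list summed to 77.4 and 107.5 CPM in naïve H9 and to 110.4 and 111.7 in primed H9, with 3 of its 5 tested genes called lower and 1 higher. HAND1 was at 41.3 ± 11.4 CPM in naïve and 0.0349 ± 0.0494 in primed H9, and KDR at 2.81 ± 0.318 and 110.9 ± 0.913. The part of feeder cells in the naïve member levels was not tested. The windows given above matched in part for each member, but they compare transcripts and do not measure where mouse reads were counted. Culture on feeders cannot be told apart from the naïve state.

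The primed lines did not show the members at this depth. Of 20 values (10 members in 2 primed H9 libraries), all were 0, and the deeper library allowed at most 0.0715 CPM. In primed RUES2-GLR the single HOXB13 read (0.0819 CPM) fell in replicate 1. No member was called between the primed lines in edgeR, where 29.3% of all tested genes were called in either direction, none had an unadjusted p under 0.05, and DESeq2 called none. In the shallowest library, RUES2-GLR replicate 2, a count of 0 allows a level of up to 0.956 CPM.

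In early RA-gastruloids, 2 group 13 genes were above the floor in both replicates. HOXB13 had 12 and 9 reads (1.15 and 0.908 CPM) against 1 and 0 in primed RUES2-GLR, a 15.9-fold ratio (95% counting interval 2.55 to 656.2; log2 fold change 3.84 ± 0.94, adjusted p = 0.000929). HOXA13 had 7 and 5 reads (0.673 and 0.505 CPM) against 0 and 0 (adjusted p = 0.00595), and no fold is given because its mean of 0.589 CPM is under the mean floor of the primed libraries. These were the 2 of 8 tested members called higher, where 12% of all tested genes were called higher. HOXC10 had 4 and 1 reads (adjusted p = 0.0764), HOXC11 4 and 0, HOXD13 3 and 0 and HOXD10 3 and 0. The other members had 2 reads or fewer in all. Leaving out primed RUES2-GLR replicate 1, which leaves the shallowest library alone, ended both calls (HOXA13 adjusted p = 0.225, HOXB13 0.0595), and leaving out early replicate 2 raised the number of called members to 5.

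From early to late RA-gastruloids 1 of the 8 tested members was called higher, HOXA10, where 11.8% of all tested genes were, and 2 lower, HOXA13 and HOXB13, where 13.2% were. HOXA10 had 1 and 0 reads early and 23 and 3 late (1.12 and 0.306 CPM). Late samples were both above early ones, but late replicate 2 was only at its floor. The count of 0 in early replicate 2 allows up to 0.303 CPM. The ratio was 17.4 (counting interval 2.85 to 711.5; log2 fold change 3.87 ± 1.07, adjusted p = 0.0033). This call was lost with DESeq2 (adjusted p = 0.0671) and without late replicate 1 (adjusted p = 0.255), which held most of the reads. HOXC10 went from 4 and 1 to 19 and 5 reads, or from 0.384 and 0.101 to 0.921 and 0.51 CPM, a log2 change of 1.63 ± 0.74 that was not called (adjusted p = 0.067). HOXB13 fell from 12 and 9 reads to 1 and 1, a ratio of 15.7 (interval 3.85 to 138.4; log2 fold change −3.82 ± 0.76, adjusted p = 9.08e-05). HOXA13 fell from 7 and 5 reads to 0 and 0, at least 2.61-fold (adjusted p = 0.000801).

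The remaining members had at most 1 read in late RA-gastruloids. Without early replicate 2 the number called was 5. Against their primed RUES2-GLR starting cells, late RA-gastruloids had HOXA10 (adjusted p = 0.00166) and HOXC10 (adjusted p = 0.00159) called higher. These were 2 of 8 tested members, where 17.3% of all tested genes were called higher. Their late means were 1.18 and 1.19 times the mean floor of the primed libraries. That is no lower bound, because late replicate 2, at 0.306 and 0.51 CPM, was under the 0.956 CPM floor of the shallowest primed library. Neither HOXA10 nor HOXC10 was called without primed RUES2-GLR replicate 1, and without late replicate 1 HOXC10 alone was called.

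The neighbouring group 9 genes were compared by their summed TPM. Group 9 summed to 1052 ± 20.1 TPM in early and 1858 ± 73.5 TPM in late RA-gastruloids, whereas group 10 summed to 0.675 ± 0.719 and 1.97 ± 1.07 TPM (SD, n = 2). Most group 9 reads fell on HOXB9, with 7106 and 6903 early and 23702 and 10346 late, and the HOXB cluster has no group 10 or 11 gene. In the clusters that have a group 10 gene, the early reads were few, with 7 and 6 on HOXA9, 36 and 50 on HOXC9 and 5 and 3 on HOXD9. The late reads were 627 and 283, 951 and 412, and 63 and 16. HOXA9 was called higher (log2 fold change 5.52 ± 0.29, adjusted p = 4.83e-16) and EVX1, at the HOXA13 end of its cluster, lower (−6.79 ± 0.30, adjusted p = 1.07e-17), and of the 6 tested genes of that list 3 rose and 1 fell. Of the noncoding genes, HOXC-AS2 and HOXC-AS1 were called higher (8.80 ± 0.45, adjusted p = 3.33e-16, and 2.91 ± 0.55, adjusted p = 5.46e-05). HOXA10-AS, which shares exons with HOXA10, had 0 reads early and 13 and 3 late, most in the same replicate as HOXA10.

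**Figure D3:**
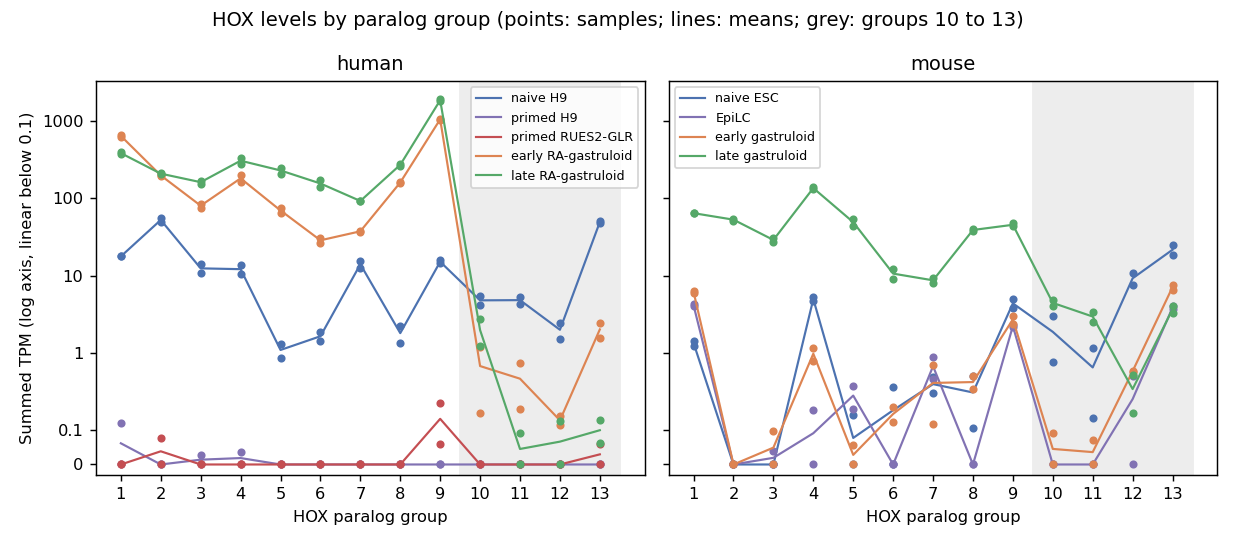
Summed TPM of the HOX genes of each paralog group (x axis) on a log axis that is linear below 0.1, for human (left) and mouse (right); points are samples, lines are stage means, and the grey area covers groups 10 to 13, of which group 12 holds no member. In RA-gastruloids the summed level drops between groups 9 and 10, from 1858 to 1.97 TPM in late samples, where most group 9 reads are of HOXB9, whose cluster has no group 10 gene, and in mouse late gastruloids from 45.4 to 4.43 TPM, while naïve cells of both species peak or rise again at group 13.

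Posterior regulators mostly fell from early to late RA-gastruloids. Of the 14 listed, 2 were called higher and 10 lower, with a median log2 change of −3.37 against 0.0 over all genes. WNT8A (−9.09 ± 0.18, adjusted p = 8.64e-27) and FGF17 (−7.15 ± 0.17, adjusted p = 6.68e-25) had the largest changes. CDX2 fell from 257.5 ± 4.98 to 24.7 ± 0.184 CPM (−3.38 ± 0.13, adjusted p = 7.29e-20) and CDX1 from 246.4 ± 3.83 to 99.0 ± 17.1 CPM (−1.31 ± 0.12, adjusted p = 1.96e-10). CDX4, low throughout, fell by 4.24 ± 0.77 (adjusted p = 2.8e-05). GDF11, which in the embryo marks the shift from trunk to tail, rose from 51.1 ± 3.58 to 121.4 ± 3.80 CPM (1.25 ± 0.11, adjusted p = 4.26e-11). Among the TALE cofactors, 3 of 9 were called higher and none lower, led by MEIS1 (4.4 ± 0.18, adjusted p = 8.05e-19). Hindgut and endoderm markers summed to 369.5 ± 10.2 CPM early and 7.42 ± 0.753 CPM late, with 6 of the 6 tested called lower. Their sum was higher still in primed RUES2-GLR, at 3926 ± 289.6 CPM, so it is no measure of endoderm alone. Tailbud markers summed to 983.2 ± 12.8 and 557.7 ± 46.3 CPM, with 2 of the 8 tested called higher and 5 lower (median log2 change −2.26). Lateral plate and hindlimb markers summed to 35.6 ± 2.17 and 51.0 ± 6.28 CPM. In the last list 1 of 5 tested genes was called higher, KDR (15.8 ± 0.408 to 49.9 ± 6.32 CPM), and 2 lower, HAND1 (9.72 ± 1.33 to 0) and FOXF1 (8.70 ± 0.881 to 0.0752 ± 0.0378), with a median log2 change of −0.11. Their part in the member levels was not tested.

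In mouse, Hoxc13 was the highest member in naïve ESCs and the only one above 1 CPM in both replicates there. It had 115 and 138 reads in naïve ESCs, or 16 and 12.4 CPM, 8 and 14 reads in EpiLCs (1.18 and 0.921 CPM), 65 and 43 in early gastruloids (3.21 and 3.78 CPM) and 2 and 3 in late ones (0.233 and 0.447 CPM). The 4 groups did not overlap. Hoxc13 fell 13.8-fold from naïve ESCs to EpiLCs (counting interval 8.91 to 22.4; log2 fold change −3.78 ± 0.28, adjusted p = 5.03e-18). It was 3.41-fold higher in early gastruloids than in EpiLCs (interval 2.14 to 5.67; 1.76 ± 0.34, adjusted p = 9.97e-06). Along the path the gastruloids took, it fell from naïve ESCs to early gastruloids (−2.02 ± 0.20, adjusted p = 7.32e-13) and again from early to late (−3.35 ± 0.50, adjusted p = 2.56e-08). The naïve to early comparison was chosen after the data were seen.

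Hoxd13 and Hoxb13 were lower than Hoxc13 in mouse naïve ESCs. Hoxd13, so high in naïve H9, had 6 and 7 reads in mouse naïve ESCs (0.837 and 0.628 CPM), 10 and 24 in EpiLCs (1.48 and 1.58 CPM), 11 and 11 in early (0.543 and 0.967 CPM) and 4 and 2 in late gastruloids (0.467 and 0.298 CPM). EpiLCs were above each other group. The rise from naïve ESCs was not called (log2 fold change 1.11 ± 0.52, adjusted p = 0.0588), and the fall to early gastruloids was (−1.12 ± 0.46, adjusted p = 0.0315) but was lost without either EpiLC replicate, without early gastruloid replicate 1 and with DESeq2 (adjusted p = 0.0808, 0.228, 0.389 and 0.232). Hoxb13 had 8 and 11 reads in naïve ESCs, 1 and 1 in EpiLCs, 15 and 7 in early and 0 and 1 in late gastruloids. Its early ratio over late was 10.6 (counting interval 1.72 to 438.8), and it did not pass the filter for the test.

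Of the 5 tested members, 1 was called lower from naïve ESCs to EpiLCs, where 12.1% of all tested genes were. The number called was 2 or 3 without any 1 replicate of these groups, 2 with upper quartile scaling and 3 without the filter, and Hoxc13 was called in each. From EpiLCs to early gastruloids 1 was called higher, where 11.7% were, and 1 lower, where 9.24% were. From naïve ESCs to early gastruloids 1 was called lower, where 6.81% were. Hoxc13 was the gene in each but the EpiLC to early fall, which was Hoxd13. Cdx1, at 35.8 ± 1.34 CPM in naïve ESCs, 0.353 ± 0.128 in EpiLCs, 17.4 ± 0.743 in early and 0.648 ± 0.0741 in late gastruloids, was highest in the same groups as Hoxc13. Cdx2 was at 7.76 ± 0.0704, 0.468 ± 0.383, 4.80 ± 0.297 and 11.2 ± 0.349 CPM. The fibroblast list summed to 9.77 and 9.33 CPM in mouse naïve ESCs with 5 of 11 markers at 0, the lowest of the 4 mouse groups.

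**Figure D4:**
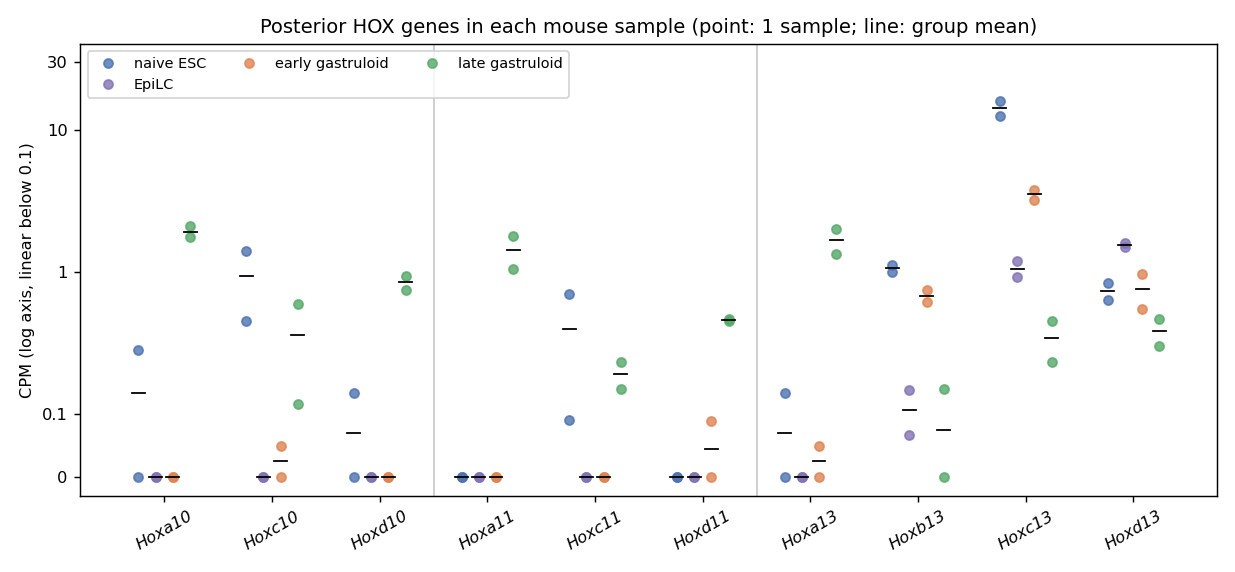
CPM of each member in each mouse sample on a log axis that is linear below 0.1; points are samples, lines are group means, and grey lines separate paralog groups 10, 11 and 13. Hoxc13 is highest in naïve ESCs at 16 and 12.4 CPM, and Hoxa10, Hoxa11, Hoxd10, Hoxd11 and Hoxa13 are highest in late gastruloids.

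Mouse late gastruloids gained the posterior members of the HoxA cluster. Hoxa10 had 15 and 14 reads (1.75 and 2.08 CPM) and none in early gastruloids, a rise of at least 9.31-fold (adjusted p = 3.56e-08). Hoxa11 had 9 and 12 reads (1.05 and 1.79 CPM) and none in any other mouse group, a rise of at least 6.89-fold (adjusted p = 9.69e-07). Hoxa13 had 17 and 9 reads (1.98 and 1.34 CPM) against 1 and 0, a ratio of 53.8 (counting interval 8.84 to 2206; log2 fold change 5.31 ± 0.89, adjusted p = 4.74e-07). By TPM they were close, at 2.10 ± 0.224, 2.22 ± 0.780 and 2.49 ± 0.723 (SD, n = 2), and their replicate ranges overlapped. With DESeq2, Hoxa10 was not called here (adjusted p = 0.154) or from naïve ESCs to late gastruloids (adjusted p = 0.45).

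Hoxd10 and Hoxd11 had more reads late than early, at lower counts than the HoxA members, while Hoxd13 had fewer. Hoxd10 had 8 and 5 reads late and 0 early, at least 4.07-fold, and Hoxd11 4 and 3 late against 0 and 1, a ratio of 14.5 (counting interval 1.86 to 652.8). Both were under the filter and were not tested. Hoxc10 and Hoxc11 stayed near the floor, with 1 and 4 reads for Hoxc10 and 2 and 1 for Hoxc11 late. In naïve ESCs Hoxc10 had 10 and 5 reads and Hoxc11 5 and 1, so that most of the group 10 and 11 RNA came from HoxC genes in naïve ESCs and from HoxA genes in late gastruloids.

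From early to late, 3 of the 5 tested members were called higher, where 20.1% of all tested genes were, and 1 lower, where 19.1% were. From naïve ESCs to late gastruloids the same 4 were called in the same directions, 3 higher where 25.6% of all tested genes were and 1 lower where 19.2% were. Without late replicate 1, the latter comparison called 2 members. Hoxa11os, which overlaps Hoxa11, had 8 and 6 reads late and 0 elsewhere, and Hoxaas3 rose (log2 fold change 7.44 ± 1.10, adjusted p = 2.83e-08). Of the 6 tested adjacent genes, 4 rose and 1 fell, with Hoxa9 (8.12 ± 0.95, adjusted p = 6.12e-11) and Hoxc9 (8.08 ± 0.97, adjusted p = 1.08e-10) the largest.

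Posterior regulators were divided in mouse, with 5 of the 13 tested called higher and 6 lower from early to late (median log2 change −0.16 against −0.03 over all genes). Cyp26a1, which degrades retinoic acid, rose by 7.16 ± 0.29 (adjusted p = 1.84e-29) and Wnt5a by 5.49 ± 0.16 (adjusted p = 1.96e-37). Gdf11 rose from 2.42 ± 0.0670 to 44 ± 0.973 CPM (4.17 ± 0.16, adjusted p = 3e-31) and Cdx2 from 4.80 ± 0.297 to 11.2 ± 0.349 CPM (1.23 ± 0.20, adjusted p = 1.92e-07). Cdx1 fell (−4.70 ± 0.27, adjusted p = 5.49e-23), as did Cdx4 (−3.64 ± 0.99, adjusted p = 0.000891). Of the TALE cofactors 7 of 9 rose and none fell, led by Meis1 (8.21 ± 0.19, adjusted p = 1.45e-42) and Meis2 (5.89 ± 0.10, adjusted p = 2.76e-49). Lateral plate and hindlimb markers summed to 5.90 ± 0.108 CPM early and 538.9 ± 3.38 CPM late, tailbud markers to 725.0 ± 12.2 and 202.9 ± 7.45 CPM, and fibroblast markers to 17.2 ± 1.32 and 958.9 ± 22.3 CPM. In the tailbud list 3 of the 7 tested genes were called higher and 3 lower, with a median log2 change of −0.16. Of the 8 hindgut and endoderm markers, 6 were called higher and 1 lower (median log2 change 4.47), among them Sox17 from 0.417 ± 0.0316 to 27.9 ± 0.609 CPM, while Epcam fell from 284.6 ± 1.06 to 96.5 ± 2.53 CPM and the sum was 419.7 ± 5.17 and 499.9 ± 1.07 CPM. Their part in the member levels was not tested.

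As a share of all reads on the 39 HOX genes, the members were a small part of all RA-gastruloids and of mouse late gastruloids, and a larger part of naïve cells, EpiLCs and mouse early gastruloids. In naïve H9 the share was 31.1% (exact 95% interval 29.4 to 32.8) and 29.4% (27.8 to 31.0), and in mouse naïve ESCs 62.2% (55.7 to 68.4) and 57.4% (51.4 to 63.3). It was 0.222% (0.155 to 0.307) and 0.0989% (0.0565 to 0.161) in early and 0.0873% (0.0635 to 0.117) and 0.0417% (0.0191 to 0.0792) in late RA-gastruloids. EpiLCs had 35.8% (23.1 to 50.2) and 36.1% (27.1 to 45.9), and mouse early gastruloids 37.2% (31.2 to 43.5) and 42.5% (34.3 to 50.9). Mouse late gastruloids had 2.32% (1.78 to 2.96) and 2.53% (1.91 to 3.29), above both late RA-gastruloids. These Clopper-Pearson intervals, like those of the ratios, cover counting error only. The totals behind them differed widely, with 238 and 282 HOX reads in mouse naïve ESCs and 50388 and 21568 in late RA-gastruloids. The primed human lines had 1 to 3 HOX reads in each library, too few for a share.

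**Figure D5:**
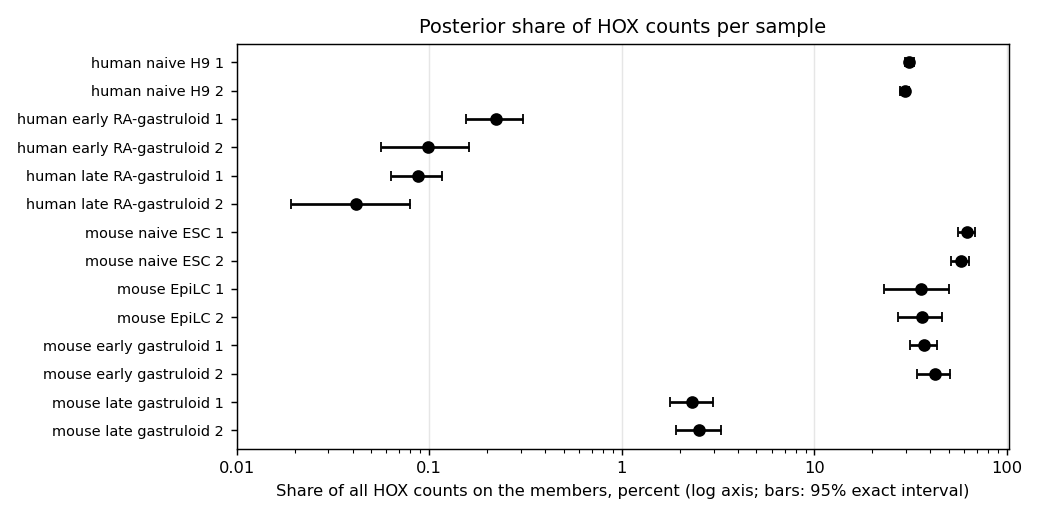
Share of all HOX counts that fell on the members in each sample, in percent on a log axis; points are samples and bars are exact 95% intervals for counting error, and the 4 primed human samples with 1 to 3 HOX counts are left out. Naïve samples lie between 29.4 and 62.2%, EpiLCs and mouse early gastruloids between 35.8 and 42.5%, mouse late gastruloids at 2.32 and 2.53%, and RA-gastruloids at 0.0417 to 0.222%.

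The change from early to late was compared between species in 1 edgeR fit of all samples over 14008 genes matched by symbol. The human change was lower than the mouse change for HOXA13 (difference of log2 fold changes −11.34 ± 1.72, adjusted p = 1.13e-06), which fell in RA-gastruloids and rose in mouse gastruloids. It was also lower for HOXA11 (−10.69 ± 3.14, adjusted p = 0.00429), with 2 reads early and none late in human, and for HOXC11 (−8.88 ± 3.01, adjusted p = 0.0121), which rests on 4 early human reads and 3 late mouse reads. The other 5 tested members did not pass, and HOXA10 rose in both species (−3.67 ± 2.69, adjusted p = 0.247). Such fitted values depend on the prior where a group is at 0, and 59.3% of all tested genes passed this test in either direction, a larger share than the 3 of 8 members. With DESeq2 or without early RA-gastruloid replicate 1, only HOXA13 of the 3 was called, and HOXC11 was not called without mouse late gastruloid replicate 1 (adjusted p = 0.0588).

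The change from naïve to primed was compared in the same way, as a comparison added after the data were seen. HOXD13 differed most (−12.46 ± 0.87, adjusted p = 2.62e-14), since it fell to 0 in primed H9 and did not fall in EpiLCs. HOXC13 (−6.16 ± 1.02, adjusted p = 3.63e-06) and HOXB13 (−6.67 ± 1.93, adjusted p = 0.00297) also had larger falls in human. These were 3 of 8 tested members, where 64.2% of all tested genes passed in either direction.

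The pattern of the member with the highest TPM in late gastruloids was set beside that of all protein-coding genes outside the HOX clusters whose highest group averaged 10 CPM or more. For HOXC10 over the 10 human samples, EHHADH (r = 0.983), STS (0.982), ZNF324 (0.973), TOE1 (0.971) and NNT (0.970) were closest on the log2 CPM scale, and all were highest in naïve H9, as HOXC10 was. For Hoxa13 over the 8 mouse samples, Clcc1 (0.997), Abhd16a (0.994), Acsl3 (0.992), Tgfbr1 (0.991) and Itgb3bp (0.990) were closest, all highest in late gastruloids. Genes above 0.9 numbered 191 of 11388 in human and 1021 of 10568 in mouse, and the samples share stages and libraries.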

How the data were processed

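The authors deposited 1 table of whole-number gene counts per species, not normalized. Per the paper's methods and the submitters' processing notes, reads were made with bcl2fastq 2.20, trimmed with Trimmomatic 0.39, mapped by STAR (GRCh38 for human, GRCm39 for mouse) and assigned to genes by featureCounts at its defaults. The annotation release and the read configuration of each sample are not given in the sources used here.

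Members were found by identifier through GENCODE 44 and M39. Counts were scaled by TMM, filtered with filterByExpr (minimum count 10) and tested with glmQLFit and glmQLFTest in edgeR 4.0.16 (R 4.3.3), with Benjamini-Hochberg adjustment over all tested genes. No replicate block was used. DESeq2 1.42.0 was an alternative. Fold changes are log2, given ± the standard error of the fit. TPM used the deposited gene lengths. Ratios between groups used summed counts, and bounds used a floor of 3 counts per library. Homeobox and promoter sequences came from the reference genomes and RefSeq (Python 3.11.15, edlib 1.3.9.post1). The tests were checked on simulated counts.

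All members are named. From the adjacent, regulator, cofactor and noncoding lists, the 2 genes with the largest called change from early to late are named, and CDX1, CDX2, CDX4 and GDF11 in full, and other genes were chosen after their values were seen. One gene that this rule names is not reported here. The members and lists were chosen with earlier results of these data known.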

Additional observations from a re-analysis of the deposited data

Results flagged for a closer look

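Differences between the species were past the threshold for 6 results. From early to late, the human minus mouse log2 change was −11.34 for HOXA13, −10.69 for HOXA11 and −8.88 for HOXC11. HOXA13 moved in opposite directions, from 7 and 5 reads to 0 in human and from 1 and 0 reads to 17 and 9 in mouse. From naïve to primed, it was −12.46 for HOXD13, −6.67 for HOXB13 and −6.16 for HOXC13. Each of these rests on a human group with 0 reads in both libraries, and the size depends on the prior of the fit. Groups of 2 samples were not tested for outlying samples.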

How the results depend on the processing

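No alternative reversed the direction of a called member. Of the single member calls, DESeq2 kept 25 and lost 8, and leaving out 1 replicate kept 138 and lost 12. Without 1 replicate in turn, the number of called members ranged from 0 to 5 from primed RUES2-GLR to early RA-gastruloids (2 with all samples), from 2 to 5 from early to late RA-gastruloids (3), from 0 to 2 from primed RUES2-GLR to late RA-gastruloids (2), from 2 to 3 from mouse naïve ESCs to EpiLCs (1), from 1 to 2 from EpiLCs to early gastruloids (2), from 2 to 5 from mouse naïve ESCs to late gastruloids (4), from 1 to 2 from mouse naïve ESCs to early gastruloids (1), and from 1 to 4 for the difference between species from early to late (3). In these fits the lone sample was assumed to vary like the other groups. From mouse naïve ESCs to EpiLCs, 2 members were called with upper quartile scaling or with the compared groups alone and 3 without the filter, and from naïve ESCs to early gastruloids 2 without the filter. DESeq2 called 1 member from EpiLCs to early gastruloids and 1 for the difference between species from early to late. The summed mouse late level of 11 TPM became 11.9 with exonic lengths not shared with another gene and was 7.64 as CPM. The cause of these changes was not tested.

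With a replicate block, the same number of members was called in each comparison except EpiLCs to early gastruloids, where 1 was called in place of 2 (Hoxd13, adjusted p = 0.064). Replicate numbers did not pair the samples: correlations of same-numbered deviations lay between −0.112 and 0.068 (human) and between −0.048 and 0.008 (mouse). Fits of the compared groups alone kept no member through the filter in the 4 human comparisons other than naïve to primed H9, and give no value there. Without the fold threshold the counts of members were as before, while the genes called rose from 8747 to 13777 from naïve to primed H9 and from 3143 to 9410 from EpiLCs to early gastruloids. Between the primed lines, upper quartile scaling moved the median of all genes by 0.134 and the calls from 3130 higher and 2227 lower to 3685 and 1492.

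At 3 counts per library, a level of 0.956 CPM is the limit that a count of 0 allows in the shallowest library, and most members outside naïve cells lie under 2 CPM. With 2 samples a group, the tests rest on a spread shared over all groups of a species.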
